A study of Sus scrofa with 35 samples.

Results

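The TEAD transcription factors and the proteins that act on them are described here from 10 genes, taken by symbol from the 4 gene expression tables of the study out of the 14673 genes listed in any table. They are the DNA-binding factors TEAD1, TEAD2, TEAD3 and TEAD4, the coactivators YAP1 and WWTR1, the vestigial-like cofactors VGLL1 and VGLL4, and the angiomotins AMOT and AMOTL2. RNA was measured in pig expanded potential stem cells (pEPSCs), cultured cells with both embryonic and extraembryonic potential, and in pig embryos at the 4-cell stage. There were 12 pEPSC libraries, 3 each from wild-type cells, cells overexpressing OTX2, cells with OTX2 knocked out and cells overexpressing LEUTX. Of 6 embryo libraries, 3 came from wild-type embryos and 3 from embryos overexpressing OTX2, and 10 zona-free embryos were pooled for each. OTX2 and LEUTX are homeobox transcription factors, known from the mouse epiblast and from human embryos at genome activation respectively. The labels used here do not say how overexpression or knockout was done, or whether the 3 libraries of a group came from separate cultures, clones or animals, so p-values measure only the spread between these libraries, which may be technical.

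In Hippo signalling, the kinases STK3 and STK4 activate the kinases LATS1 and LATS2, which phosphorylate YAP1 and WWTR1 and keep them out of the nucleus. Unphosphorylated YAP1 and WWTR1 enter the nucleus and bind TEADs, which hold no strong activation domain of their own, to switch on genes such as CTGF and CYR61. In the mouse preimplantation embryo this switch separates trophectoderm, where TEAD4 with nuclear YAP1 drives Cdx2, from inner cells, where angiomotins at cell junctions promote YAP1 phosphorylation. RNA levels do not show where YAP1 and WWTR1 proteins are in the cell or whether they are phosphorylated.

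The tables list genes with a mean of about 1 TPM (a transcript abundance scaled for transcript length and library size) or more over their 6 libraries, and a gene that is not listed has no value here. All 10 genes were listed in the knockout table. The OTX2 overexpression and LEUTX overexpression tables listed 9, VGLL1 being the one not listed. The embryo table listed 4 of them, TEAD1, YAP1, VGLL4 and AMOT. TEAD2, TEAD3, TEAD4, WWTR1, VGLL1 and AMOTL2 were not listed there.

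All 10 are annotated as protein-coding genes in RefSeq on the pig build Sscrofa11.1, and the positions below span whole genes with exons and introns. TEAD1 lies at chr2:46396490-46670619, TEAD2 at chr6:54448183-54462325, TEAD3 at chr7:31337890-31351452 and TEAD4 at chr5:67130392-67167579. YAP1 lies at chr9:32811629-32924926 and WWTR1 at chr13:89742980-89889547. VGLL4 at chr13:67698082-67873119 and AMOTL2 at chr13:75490936-75507360 lie on the same chromosome as WWTR1, and AMOT at chrX:92581995-92647872 and VGLL1 at chrX:111662565-111684676 on the X chromosome.

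The engineered genes were checked first. OTX2 was at 252 to 260 TPM in wild-type pEPSCs, 8974 to 10819 TPM with OTX2 overexpression and 99.5 to 130 TPM in the knockout, so knockout libraries still held OTX2 RNA; which part of the gene was removed is not given in the labels used here. The LEUTX overexpression libraries listed LEUTX at 3073 to 3187 TPM, against 0 in wild type, and OTX2 at 0.131 to 0.294 TPM. In embryos OTX2 was at 283 to 327 TPM in wild type and 8276 to 10565 TPM with OTX2 overexpression. LEUTX was at 346 to 631 TPM in wild-type embryos and 12.4 to 80.8 TPM in those overexpressing OTX2. The 5 pluripotency markers POU5F1, SOX2, NANOG, LIN28A and DNMT3B were all listed in the pEPSC tables and summed to 5078 to 5524 TPM in wild type, 2307 to 2592 with OTX2 overexpression, 3556 to 6510 in the knockout and 2927 to 3012 with LEUTX overexpression. These markers did not move alike. POU5F1 had a mean of 1558 TPM in wild type, 1395 TPM with OTX2 overexpression and 1676 TPM with LEUTX overexpression. SOX2, NANOG, LIN28A and DNMT3B had lower means than wild type in both of these groups. DNMT3B went from 1729 TPM to 285 TPM with OTX2 overexpression and 366 TPM with LEUTX overexpression. None of 8 cumulus and granulosa cell markers was listed in the embryo table. One knockout library stood apart: the 13 mitochondrially encoded genes made up 20.3% of TPM in knockout library 1 and 9.2% and 9.3% in knockout libraries 3 and 4, numbered as in the column names, against 13.5% to 14.7% in wild type. The share was 8.2% to 9.1% in all 3 libraries with OTX2 overexpression, so it moved with that comparison, and 14.8% to 14.9% with LEUTX overexpression. With these genes removed and TPM rescaled, the changes with OTX2 overexpression were as follows: YAP1 stood at -1.20, TEAD1 at -1.07, AMOTL2 at -0.55 and VGLL4 at 0.56 on the log2 scale, all past the threshold. Knockout results are therefore given with and without library 1.

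In wild-type pEPSCs the 4 TEADs summed to 341 ± 18 TPM (SD, n = 3), and TEAD2 made up 67.1% ± 2.72 of that sum. TEAD3 contributed 13.3% ± 1.64, TEAD4 11.3% ± 1.01 and TEAD1 8.37% ± 0.115. YAP1 was at 61.8 ± 1.67 TPM and its paralog WWTR1, also called TAZ, at 6.38 ± 0.473 TPM. The angiomotin AMOTL2 was at 49 ± 8.54 TPM and AMOT at 13.6 ± 1.21 TPM. VGLL4, which competes with YAP1 for TEADs in mouse and human cells, was at 7.97 ± 1.7 TPM, and VGLL1, a TEAD partner found in human trophoblast, was at 0.425 ± 0.0697 TPM.

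**Figure D1:**
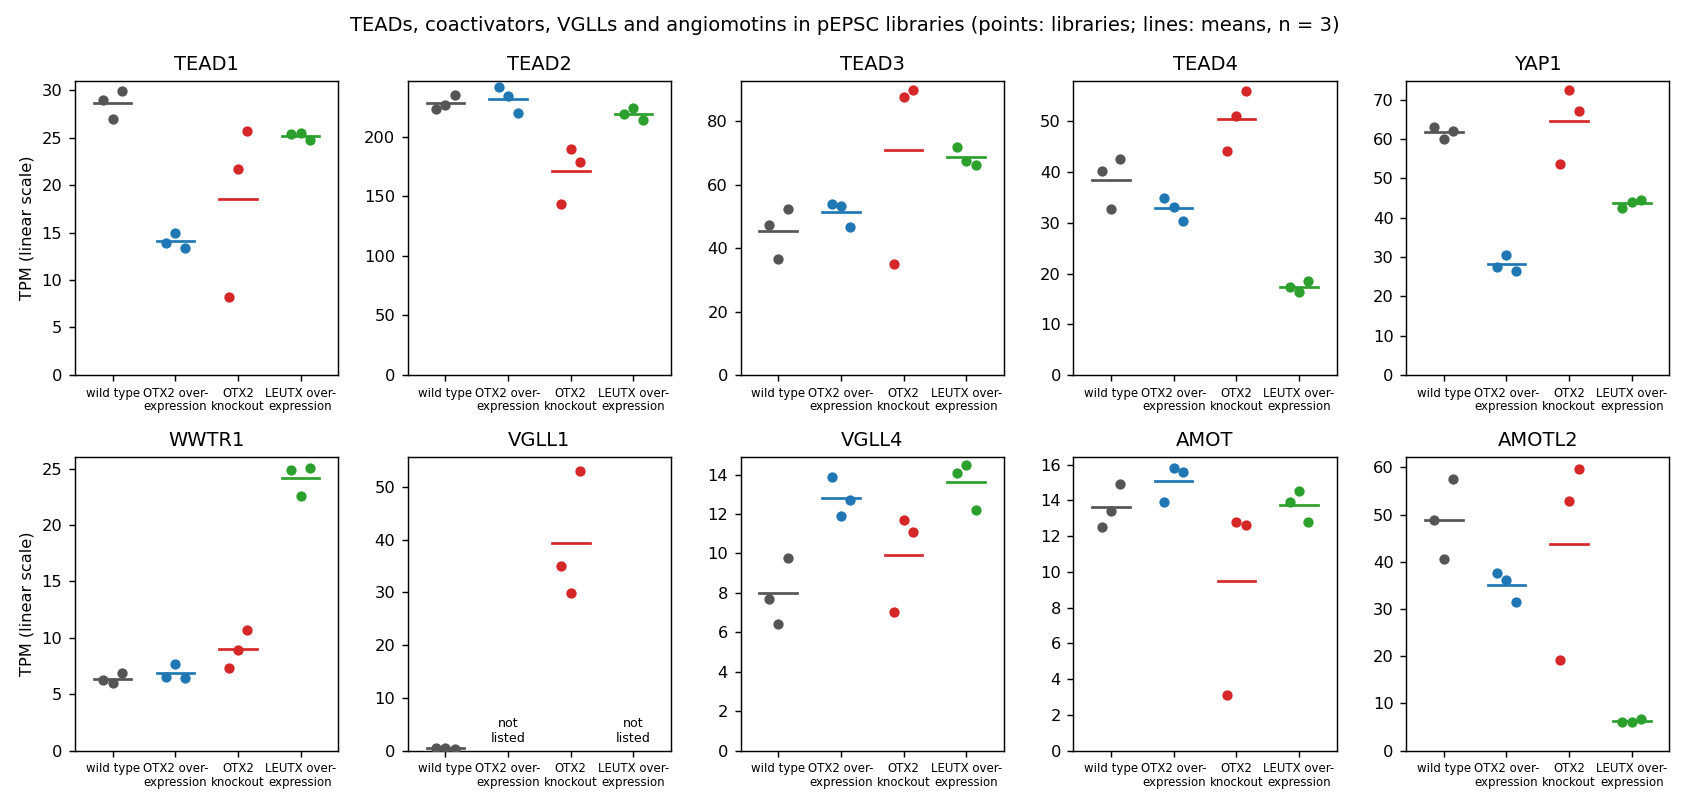
Level in TPM (linear y axis) of each of the 10 genes in the 12 pEPSC libraries; points are libraries and lines are group means (n = 3). Every OTX2 overexpression library is lowest for YAP1, every LEUTX library is lowest for TEAD4 and AMOTL2 and highest for WWTR1, TEAD1 has its lowest group mean with OTX2 overexpression and its lowest library, at 8.19 TPM, in the knockout, and VGLL1 reaches 29.9 to 53.1 TPM in the knockout.

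Under OTX2 overexpression, TEAD1 and YAP1 fell to less than their wild-type level in every library, AMOTL2 fell and VGLL4 rose. Changes are given on the scale of log2(TPM + 1), which understates those of genes at a few TPM, and were tested with limma and adjusted by the Benjamini-Hochberg method over all genes of the table, with a threshold of 0.05. Of the 9 listed genes, 1 rose and 3 fell, where 82.4% of all 13272 genes tested passed, 48.9% higher and 33.5% lower. The 4 of 9 is thus below the share for all genes. Their median log2 fold change was 0.02, against 0.20 for all genes.

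YAP1 was at 63.2, 60.0 and 62.2 TPM in the 3 wild-type libraries and at 27.5, 30.6 and 26.4 TPM with OTX2 overexpression. The groups were far apart, and the log2 fold change was -1.11 (SE 0.0715, limma adjusted p = 1.82e-07). TEAD1 was at 29.0, 27.0 and 29.9 TPM in wild type and at 13.9, 15 and 13.4 TPM with OTX2 overexpression, for a log2 fold change of -0.97 (SE 0.0805, limma adjusted p = 1.13e-06). Again no overexpression library reached the lowest wild-type library.

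VGLL4 moved the other way, from 7.71, 6.42 and 9.78 TPM to 13.9, 11.9 and 12.7 TPM, which gave a log2 fold change of 0.64 (SE 0.134, limma adjusted p = 0.00117). The lowest overexpression library was above the highest wild-type library. AMOTL2, an angiomotin that is also a YAP1 and TEAD target in human cells, was at 48.8, 40.5 and 57.6 TPM in wild type and at 37.6, 36.2 and 31.4 TPM with OTX2 overexpression. Its log2 fold change was -0.46 (SE 0.12, limma adjusted p = 0.00479), and in one fit over all 12 pEPSC libraries, whose shared spread takes in the knockout, the adjusted p was 0.216.

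The other 5 genes did not pass under OTX2 overexpression. TEAD4 had a mean of 38.5 ± 5.15 TPM in wild-type libraries and of 32.9 ± 2.3 TPM in overexpression libraries, a log2 fold change of -0.22 with limma adjusted p = 0.0678. TEAD2 was at 228 ± 5.87 and 232 ± 11.5 TPM, TEAD3 at 45.4 ± 7.94 and 51.3 ± 3.88 TPM, WWTR1 at 6.38 ± 0.473 and 6.90 ± 0.71 TPM, and AMOT at 13.6 ± 1.21 and 15.1 ± 1.04 TPM, with adjusted p between 0.169 and 0.703. Scaling mattered for this comparison: median-ratio scaling moved the median of all genes from 0.20 to 0.02 and quantile normalization moved it to -0.05, and the share of passing genes that were higher went from 59.3% to 50.9% and 47.6%. With median-ratio scaling YAP1 stood at -1.30, TEAD1 at -1.16, AMOTL2 at -0.65 and VGLL4 at 0.46, all still past the threshold. TEAD4 (-0.41, adjusted p = 0.000982) and TEAD2 (-0.17, adjusted p = 0.0113) also passed with that scaling. With quantile normalization TEAD4 passed (-0.31, adjusted p = 0.00642), and WWTR1 turned lower and passed (-0.27, adjusted p = 0.0207). TEAD4 passed as well without wild-type library 2 (-0.33, adjusted p = 0.00367), and TEAD3 without wild-type library 3 (0.29, adjusted p = 0.0302).

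In OTX2 knockout pEPSCs, VGLL1 rose from below 1 TPM to 39.4 ± 12.2 TPM (SD, n = 3), and TEAD2 fell. These were the 2 of 10 genes that passed, 1 higher and 1 lower, where 37.1% of all 12255 genes tested passed, 14.9% higher and 22.3% lower. The higher one, VGLL1, was in the test only through its level in the knockout libraries. The median log2 fold change of the 10 was 0.16, against -0.11 for all genes. Scaling again mattered: the share of passing genes that were higher was 40.0% as deposited, 49.4% with quantile normalization and 50.6% with median-ratio scaling, which moved the median of all genes to -0.02 and 0.

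VGLL1 was at 0.499, 0.417 and 0.360 TPM in wild type and at 35.1, 29.9 and 53.1 TPM in knockout libraries 1, 3 and 4. All 3 knockout libraries were above all 3 wild-type libraries. The log2 fold change was 4.78 (SE 0.22, limma adjusted p = 6.09e-05). VGLL1 entered the test only through the knockout libraries, since no wild-type library reached 1 TPM and genes needed 1 TPM in 3 libraries. With any knockout library left out it was not tested for that reason.

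The summed level of trophoblast markers moved with VGLL1, mostly through its keratins. Of 16 trophoblast markers, 7 were listed in the knockout table, and they summed to 1991 to 2069 TPM in wild type and 6197 to 8348 TPM in the knockout, most of it the keratins KRT8 and KRT18. Of the others listed, KRT19 (298 to 482 TPM), TFAP2C (16.8 to 51.4 TPM), TFAP2A (1.17 to 5.37 TPM) and ELF3 (1.29 to 5.39 TPM) also had higher means in the knockout. In none of them did the groups overlap. EOMES alone went the other way, from 13.5 to 5.63 TPM (-1.14, limma adjusted p = 0.00256). ELF3 was higher still with OTX2 overexpression (8.96 TPM) and TFAP2C with LEUTX overexpression (102 TPM), where VGLL1 was not listed. KRT8, KRT18, KRT19 and TFAP2A had their highest mean in the knockout, among the pEPSC groups with a value. CDX2, GATA2, GATA3, KRT7 and HAND1, which define trophoblast, were not listed. Of 12 fibroblast and mesenchyme markers, 8 were listed, at 167 to 184 TPM in wild type and 359 to 432 TPM in the knockout. In bulk RNA a change in the number of cells of a type and a change in RNA per cell cannot be told apart, and the part of other cell types in the VGLL1 result was not tested.

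TEAD2 was at 223, 227 and 235 TPM in wild type and at 144, 190 and 179 TPM in the knockout, a log2 fold change of -0.43 (SE 0.117, limma adjusted p = 0.0279). The groups did not overlap, but the adjusted p was 0.0917 to 0.103 when any 1 wild-type library was left out. TEAD1 was at 8.19, 21.7 and 25.7 TPM in the knockout, all below wild type, and did not pass (log2 fold change -0.74, SE 0.379, adjusted p = 0.164). TEAD3 was at 35.1, 87.8 and 90.0 TPM against 47.3, 36.7 and 52.3 TPM in wild type. Knockout library 1 lay below wild type and the other knockout libraries above it, and the change did not pass (0.53, SE 0.362, adjusted p = 0.284).

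Knockout library 1 was the lowest of the 3 knockout libraries for each TEAD, for YAP1, WWTR1 and VGLL4, and for both angiomotins. AMOT was at 3.09 TPM there and at 12.8 and 12.6 TPM in the other knockout libraries, against 12.5 to 14.9 TPM in wild type. AMOTL2 was at 19.2 TPM there and at 52.8 and 59.6 TPM in the others, against 40.5 to 57.6 TPM in wild type. Without library 1, 7 of the 9 genes that could be tested passed, 5 higher and 2 lower, where 63.5% of all 12128 genes tested passed, 32.1% higher and 31.4% lower. TEAD3 rose by 0.97 (adjusted p = 0.000524), TEAD4 by 0.47 (adjusted p = 0.00781), WWTR1 by 0.55 (adjusted p = 0.00464), VGLL4 by 0.48 (adjusted p = 0.0293) and YAP1 by 0.17 (adjusted p = 0.0448), on the log2 scale, in that limma fit. TEAD2 was at -0.31 (adjusted p = 0.0013) and TEAD1 at -0.27 (adjusted p = 0.0407), while AMOT (-0.08, adjusted p = 0.49) and AMOTL2 (0.21, adjusted p = 0.214) did not pass. With all 3 libraries, TEAD4 at 50.4 ± 5.91 TPM and WWTR1 at 9.0 ± 1.67 TPM had adjusted p = 0.0828 and 0.082. In this comparison both TEAD4 and WWTR1 passed with quantile normalization, with median-ratio scaling, without mitochondrial genes and in one fit over the 12 pEPSC libraries.

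Under LEUTX overexpression the group changed most in AMOTL2, WWTR1 and TEAD4. AMOTL2, TEAD4, YAP1 and TEAD1 fell, and WWTR1, VGLL4 and TEAD3 rose. This is 7 of 9 listed genes, 3 higher and 4 lower, where 69.7% of all 12570 genes tested passed, 41.6% higher and 28.1% lower. The share passing is near that of all genes. The median log2 fold change was -0.06, against 0.11 for all genes, and the share of passing genes that were higher went from 59.7% as deposited to 49.9% with median-ratio scaling and 46.9% with quantile normalization.

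AMOTL2 was at 48.8, 40.5 and 57.6 TPM in wild type and at 6.11, 6.13 and 6.69 TPM with LEUTX overexpression. The log2 fold change was -2.76 (SE 0.117, limma adjusted p = 1.02e-07), and the LEUTX libraries were below all 9 other pEPSC libraries. AMOT, the other angiomotin, stood at 13.6 ± 1.21 TPM in wild-type libraries and at 13.7 ± 0.87 TPM in LEUTX libraries (log2 fold change 0.02, SE 0.0876, adjusted p = 0.884). Its direction was -0.23 with quantile normalization (adjusted p = 0.0174) and -0.09 with median-ratio scaling (adjusted p = 0.315).

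The coactivators moved in opposite directions. WWTR1 rose from 6.29, 5.96 and 6.89 TPM to 24.9, 22.6 and 25.1 TPM, which gave a log2 fold change of 1.77 (SE 0.0823, limma adjusted p = 1.78e-07). YAP1 fell from 63.2, 60.0 and 62.2 TPM to 42.4, 44.1 and 44.4 TPM, which gave a log2 fold change of -0.49 (SE 0.048, limma adjusted p = 1.79e-05). In neither gene did the groups overlap.

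TEAD4, the TEAD required for trophectoderm in the mouse, fell from 40.3, 32.7 and 42.6 TPM to 17.4, 16.3 and 18.5 TPM, which gave a log2 fold change of -1.10 (SE 0.0989, limma adjusted p = 1.1e-05). TEAD3 rose from 45.4 ± 7.94 to 68.6 ± 2.99 TPM (change on the log2 scale 0.60, SE 0.111, adjusted p = 0.00104), with adjusted p = 0.0999 in one fit over the 12 pEPSC libraries. TEAD1 fell from 28.7 ± 1.49 to 25.2 ± 0.357 TPM (change on the log2 scale -0.17, SE 0.0617, adjusted p = 0.03). That TEAD1 call was lost when any 1 library other than wild-type library 2 was left out (adjusted p 0.0638 to 0.0841), with the replicate number as a block (adjusted p = 0.0821) and when the 12 pEPSC libraries were fitted together (adjusted p = 0.646). TEAD1 did pass with quantile normalization (-0.3, limma adjusted p = 0.000684) and with median-ratio scaling (-0.28, adjusted p = 0.000985). TEAD2 was at 228 ± 5.87 and 219 ± 5 TPM and did not pass (adjusted p = 0.146), except with median-ratio scaling (-0.17, adjusted p = 0.00537). VGLL4 rose from 7.97 ± 1.7 to 13.6 ± 1.21 TPM (change on the log2 scale 0.72, SE 0.135, adjusted p = 0.0012), and its LEUTX libraries, at 14.1, 14.5 and 12.2 TPM, overlapped those with OTX2 overexpression.

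**Figure D2:**
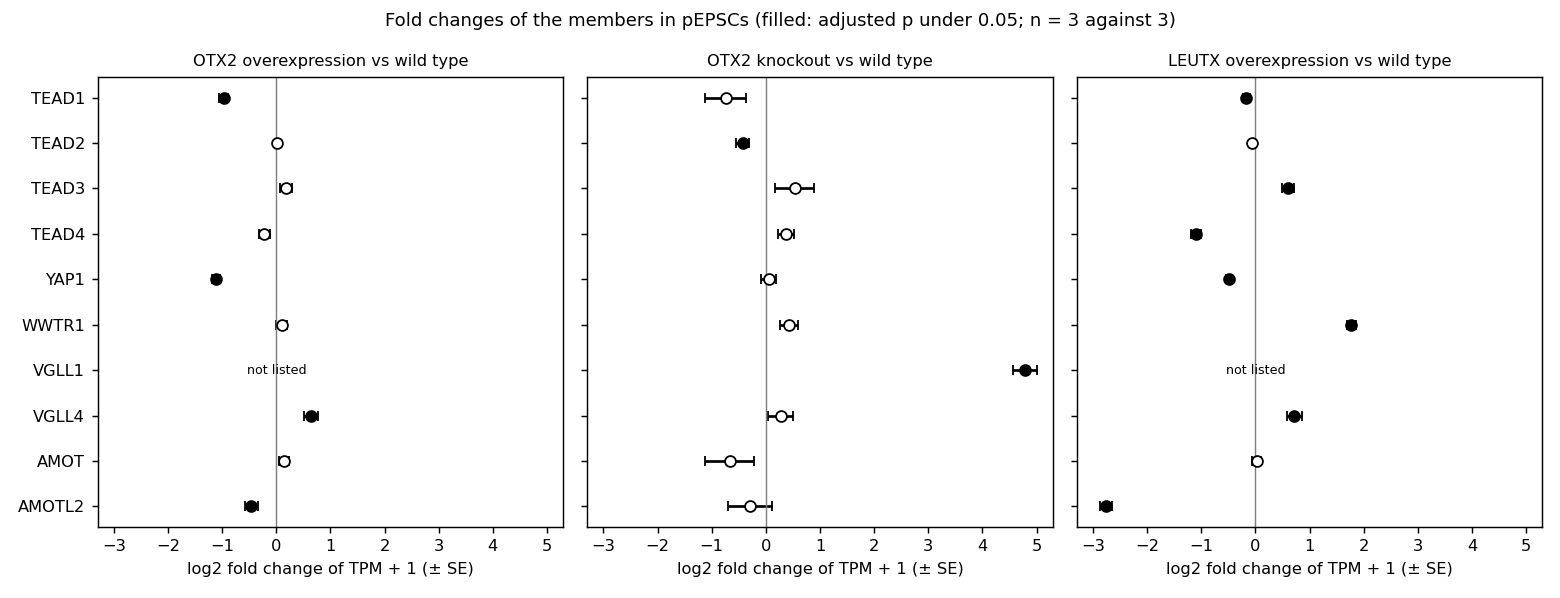
Log2 fold change of TPM + 1 with its SE (x axis) for each gene in OTX2 overexpression, OTX2 knockout and LEUTX overexpression against the same 3 wild-type pEPSC libraries; filled points passed at an adjusted p of 0.05. Error bars are widest in the knockout, where VGLL1 stands at 4.78, and AMOTL2 stands at -2.76 and WWTR1 at 1.77 with LEUTX overexpression.

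Because the 3 comparisons share their wild-type libraries, the engineered groups were also compared directly, which was possible because the wild-type values were identical in the 3 pEPSC tables. Each group enters 2 of these 3 direct comparisons. Between LEUTX and OTX2 overexpression 6 of 9 genes differed, where 81.1% of all genes tested did. AMOTL2 was lower with LEUTX by a log2 difference of -2.30 (limma adjusted p = 6.83e-11) and TEAD4 by -0.88 (adjusted p = 2.16e-07). WWTR1 was higher with LEUTX by 1.68 (adjusted p = 1.63e-09), TEAD1 by 0.80 (adjusted p = 3.19e-07), YAP1 by 0.62 (adjusted p = 2.21e-06) and TEAD3 by 0.41 (adjusted p = 5.36e-05). TEAD2, AMOT and VGLL4 did not pass, VGLL4 with a difference of 0.08 (SE 0.0904, adjusted p = 0.449).

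Between the OTX2 knockout and OTX2 overexpression 3 of 9 genes differed, where 53.8% of all genes tested did. YAP1 was higher in the knockout by 1.16 (limma adjusted p = 0.000557) and TEAD4 by 0.60 (adjusted p = 0.00732), and TEAD2 was lower by -0.45 (adjusted p = 0.0169). The TEAD2 difference had adjusted p = 0.0736 and 0.063 without OTX2 overexpression library 1 or 2, and 0.0537 with median-ratio scaling. Without knockout library 1, 7 of 9 genes differed, where 74.1% of all genes did, TEAD1 (0.71), TEAD3 (0.78), AMOTL2 (0.67) and WWTR1 (0.45) being added as higher in the knockout. The share of passing genes that were higher was 35.8% as deposited, 53.5% with quantile normalization and 48.8% with median-ratio scaling.

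Between LEUTX overexpression and the OTX2 knockout 5 of 9 genes differed, where 52.5% of all genes tested did. TEAD4 (-1.48, limma adjusted p = 0.00017), AMOTL2 (-2.47, adjusted p = 0.00241) and YAP1 (-0.54, adjusted p = 0.0123) were lower with LEUTX. WWTR1 (1.35, adjusted p = 0.000545) and TEAD2 (0.36, adjusted p = 0.0335) were higher. The TEAD2 call was lost when knockout library 4 or any LEUTX library was left out (adjusted p 0.0526 to 0.112) with median-ratio scaling (adjusted p = 0.187) and with plain limma (adjusted p = 0.0541), and the YAP1 call without LEUTX library 1 (adjusted p = 0.056). TEAD3 stood at 0.07 (adjusted p = 0.882) with all libraries and at -0.37 (adjusted p = 0.000176) without knockout library 1, when 7 of 9 genes differed, where 76.7% of all genes did. Here the share of passing genes that were higher was 65.9% as deposited, 50.1% with quantile normalization and 50.3% with median-ratio scaling.

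The order of the pEPSC groups by mean level differed between genes. For YAP1 the knockout (64.5 TPM) and wild type (61.8 TPM) overlapped, followed without overlap by LEUTX (43.6 TPM) and OTX2 overexpression (28.2 TPM). For TEAD4 the knockout (50.4 TPM) stood above wild type (38.5 TPM), which overlapped OTX2 overexpression (32.9 TPM), and LEUTX overexpression (17.4 TPM) was lowest and apart. For TEAD1 wild type (28.7 TPM) stood above LEUTX overexpression (25.2 TPM), which overlapped the knockout (18.5 TPM), and the knockout overlapped OTX2 overexpression (14.1 TPM). For WWTR1 LEUTX overexpression (24.2 TPM) stood alone above the knockout, OTX2 overexpression and wild type, whose neighbours overlapped.

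The makeup of the TEAD pool shifted, while its sum was similar in all pEPSC libraries except knockout library 1, where it was lower. The sum was 341 ± 18 TPM in wild type, 330 ± 18 with OTX2 overexpression, 330 ± 5.2 with LEUTX overexpression and 311 ± 69 in the knockout, whose library 1 was at 231 TPM. TEAD2 held the largest share in every pEPSC library, from 51.1% to 70.8%. The TEAD1 share was 8.37% ± 0.115 in wild type and 4.27% ± 0.252 with OTX2 overexpression. The TEAD4 share ran from 5.27% ± 0.404 with LEUTX overexpression through 11.3% ± 1.01 in wild type to 16.6% ± 2.3 in the knockout. The TEAD3 share was 13.3% ± 1.64 in wild type, 20.8% ± 0.7 with LEUTX overexpression and 22% ± 5.9 in the knockout. These shares are given as descriptions, with no test.

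WWTR1 made up 9.33% ± 0.577 of the summed TPM of YAP1 and WWTR1 in wild type, 12.2% ± 1.37 in the knockout, 19.6% ± 0.451 with OTX2 overexpression and 35.7% ± 1.59 with LEUTX overexpression. The sum of both coactivators was 68.2 ± 1.97 TPM in wild type, 67.8 ± 1.49 TPM with LEUTX overexpression and 35.1 ± 2.85 TPM with OTX2 overexpression. Per unit of TEAD TPM the coactivators stood at a ratio of 0.106 ± 0.0078 with OTX2 overexpression, against 0.2 ± 0.00693 in wild type, 0.206 ± 0.00814 with LEUTX overexpression and 0.24 ± 0.0218 in the knockout. The ratio of VGLL4 to TEAD TPM was 0.0232 ± 0.00373 in wild type, 0.0389 ± 0.00296 with OTX2 overexpression, 0.0411 ± 0.00299 with LEUTX overexpression and 0.0317 ± 0.00146 in the knockout.

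**Figure D3:**
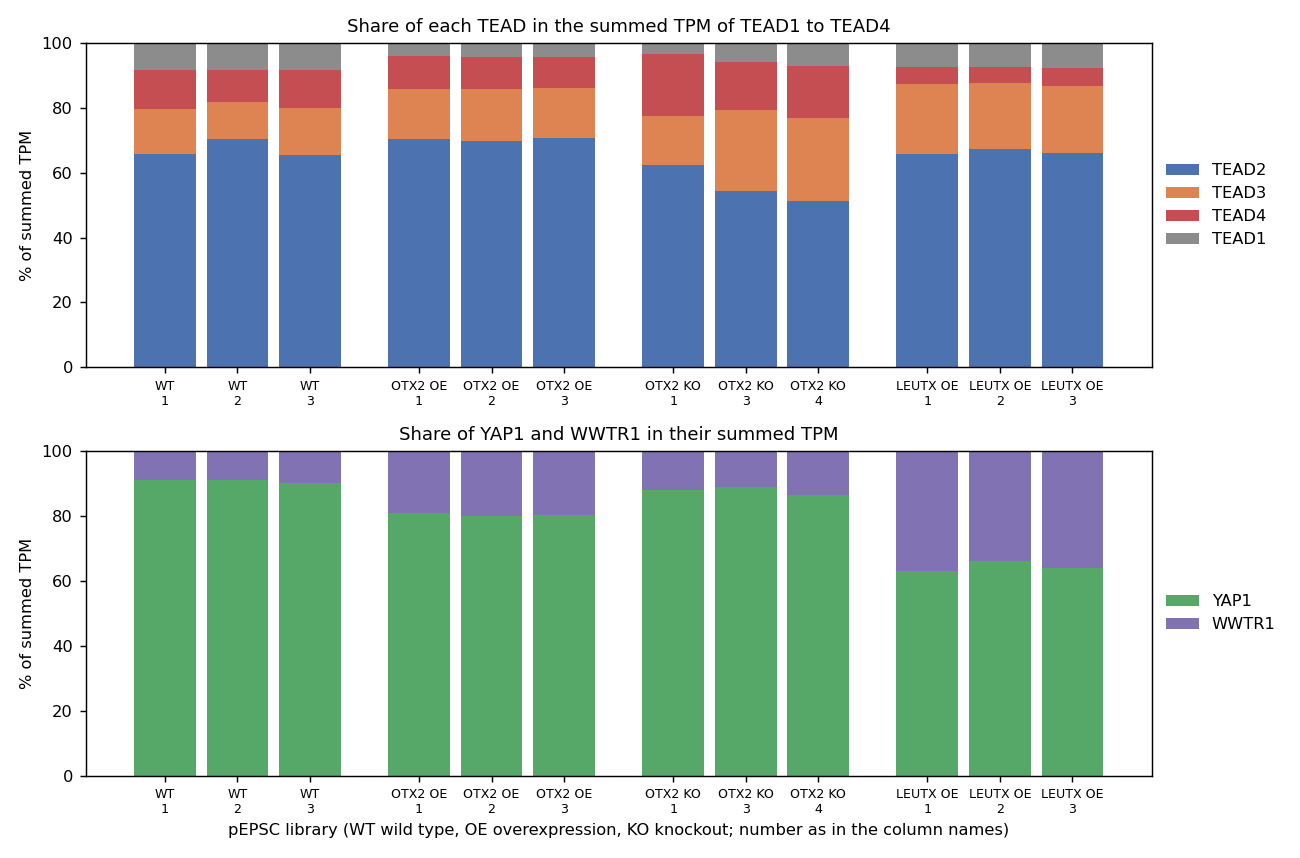
Share (% of summed TPM, y axis) of each TEAD in the TEAD1 to TEAD4 sum (top) and of YAP1 and WWTR1 in their sum (bottom) in each of the 12 pEPSC libraries, numbered as in the column names. TEAD2 is the largest TEAD share in every bar, TEAD4 is at 5.27% on average with LEUTX overexpression, and the WWTR1 share reaches 35.7% on average there.

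A list of upstream Hippo regulators, chosen from general knowledge of the pathway, was set beside the group; 30 of its genes were listed in the pEPSC tables. Under OTX2 overexpression 29 of 30 passed, 11 higher and 18 lower, and had a median log2 fold change of -0.46, where 82.4% of all genes passed with a median of 0.20. FAT1, an atypical cadherin, fell from 128 to 43.7 TPM (-1.53, limma adjusted p = 8.92e-08), MOB1A, a cofactor of LATS kinases, fell by 0.56 and STRN3, a subunit of the phosphatase complex that acts on STK3 and STK4, fell by 0.94. The polarity protein CRB3 rose from 74.8 to 192 TPM (1.35) and the kinase TAOK2 from 29.3 to 75.8 TPM (1.34).

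In the knockout 7 of the 30 upstream regulators passed, all lower as deposited, with a median of -0.37, where 37.1% of all genes passed; with quantile normalization 6 were higher and 8 lower, and with median-ratio scaling 3 were higher and 9 lower. LATS1 was at 18.5, 16.6 and 19.2 TPM in wild type and at 6.97, 9.09 and 9.17 TPM in the knockout, a log2 fold change of -1.03 (limma adjusted p = 0.00328). MOB1A (-0.79), MOB1B (-0.95), the striatin STRN (-0.87) and the kinase TAOK1 (-0.68) were the others with the smallest adjusted p. Without any 1 wild-type library the calls were lost for STRN (adjusted p 0.0611 to 0.0697) and TAOK1 (0.0688 to 0.0733). Without knockout library 1, 21 of the 30 upstream genes passed, near the 63.5% of all genes, 11 higher and 10 lower, with LATS1 (-0.91) and MOB1A (-0.69) again lower.

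Under LEUTX overexpression 18 of the 30 upstream regulators passed, 6 higher and 12 lower, with a median of -0.07, below the 69.7% of all genes that passed. AJUBA, a LIM protein that inhibits LATS kinases, was at 31.6, 32.7 and 31.4 TPM in wild type and at 4.30, 5.64 and 4.80 TPM with LEUTX overexpression (log2 fold change -2.48, limma adjusted p = 5.04e-08). FAT1 (-0.72) and the kinase MAP4K4 (-0.49) fell, and CRB3 (0.68) and WWC2 (0.76), a relative of the LATS scaffold KIBRA, rose. When the 12 pEPSC libraries were fitted together, FAT1 (adjusted p = 0.113) and MAP4K4 (adjusted p = 0.0775) did not pass.

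Genes known as YAP and TEAD targets in human and mouse cells formed the second list, with 16 listed in the pEPSC tables, AMOTL2 among them. Under LEUTX overexpression 12 of 16 passed, 3 higher and 9 lower, where 69.7% of all genes passed, with a median log2 fold change of -0.74 against 0.11 for all genes. CTGF, a matricellular protein and the most used reporter of the pathway, was at 32.8, 26.5 and 33.6 TPM in wild type and at 1.57, 1.13 and 1.33 TPM with LEUTX overexpression (-3.77, SE 0.117, limma adjusted p = 1.85e-08). CYR61, a related matricellular protein, was at 27.1, 26.0 and 33.6 TPM and at 2.43, 2.63 and 2.76 TPM (-3.04, adjusted p = 3.52e-08). The receptor kinase AXL (-1.27) and the membrane protein CRIM1 (-0.87) also fell, as did LATS2 (-0.82, adjusted p = 0.000133), the LATS kinase that YAP1 itself induces in human cells.

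The summed level of fibroblast and mesenchyme markers moved with these target genes. Of 12 such markers, 8 were listed in the LEUTX table, and COL3A1, TWIST1, LUM and DCN were not. Those listed summed to 167 to 183 TPM in wild type and 41.1 to 46.6 TPM with LEUTX overexpression. PDGFRB, also on that list, rose, from 0.751 to 2.1 TPM (0.82, limma adjusted p = 0.000264). The 6 trophoblast markers listed there summed to 1989 to 2068 TPM and 1325 to 1370 TPM, with KRT8 falling from 1159 to 779 TPM while TFAP2C rose from 16.8 to 102 TPM. The part of such cells in the fall of CTGF and CYR61 was not tested.

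With OTX2 overexpression 14 of the 16 targets passed, 9 higher and 5 lower (median 0.35), near the 82.4% of all genes, or 7 and 7 with quantile normalization, and CTGF and CYR61 moved apart under each scaling tried. CTGF fell from 32.8, 26.5 and 33.6 TPM to 13, 12.9 and 13.2 TPM (-1.18, limma adjusted p = 1.13e-06). CYR61 rose from 27.1, 26.0 and 33.6 TPM to 39.8, 38.4 and 37.5 TPM (0.41, adjusted p = 0.00218), and LATS2 rose by 0.60 (adjusted p = 0.000193). GADD45A, a stress-induced growth arrest gene, rose from 4.72 to 30.2 TPM (2.45), the kinase NUAK2 by 0.95 and F3, tissue factor, from 0.913 to 11.9 TPM (2.77), while CRIM1 fell by 1.19. F3 entered the test through the overexpression libraries, with 1 wild-type library at 1 TPM or more. Fibroblast markers summed to 269 to 274 TPM here, against 168 to 184 TPM in wild type, and their part was not tested.

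In the knockout 5 of 16 targets passed, 3 higher and 2 lower, with a median of 0.11, where 37.1% of all genes passed. IGFBP3, a secreted binding protein for insulin-like growth factors, rose from 5.52 to 46.8 TPM (2.83, limma adjusted p = 0.000634), GADD45A rose by 0.78 and F3 by 0.79, and NUAK2 (-1.08) and FJX1 (-0.67), the counterpart of Drosophila four-jointed, fell. The calls for 3 of these were lost when 1 library was left out: GADD45A for each library but knockout library 1 (adjusted p 0.101 to 0.153), F3 without wild-type library 1 or 2 or knockout library 4 (0.0781 to 0.109) and FJX1 without wild-type library 1 or 2 (0.0653 and 0.0727). F3 reached 1 TPM in 1 wild-type library and FJX1 in 1 knockout library. CTGF was at 20.7, 46.5 and 45.2 TPM, below wild type in library 1 and above it in the other knockout libraries, and did not pass (0.19, adjusted p = 0.654). Without library 1, 11 of 16 targets passed, near the 63.5% of all genes, 9 higher and 2 lower, CTGF among the higher (0.56, adjusted p = 0.0027). CYR61 (0.10, adjusted p = 0.755) and LATS2 (0.16, adjusted p = 0.545) did not pass with all libraries, and ANKRD1 was not listed in any table.

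Compared directly, CTGF was lower with LEUTX overexpression than with OTX2 overexpression by a log2 difference of -2.59 (limma adjusted p = 1.46e-10) and than in the knockout by -3.96 (adjusted p = 0.000123). CTGF was higher in the knockout than with OTX2 overexpression by 1.37 (adjusted p = 0.00698). CYR61 was lower with LEUTX overexpression than with OTX2 overexpression by -3.46 and than in the knockout by -3.14, and its difference of -0.32 between the knockout and OTX2 overexpression did not pass (adjusted p = 0.222).

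**Figure D4:**
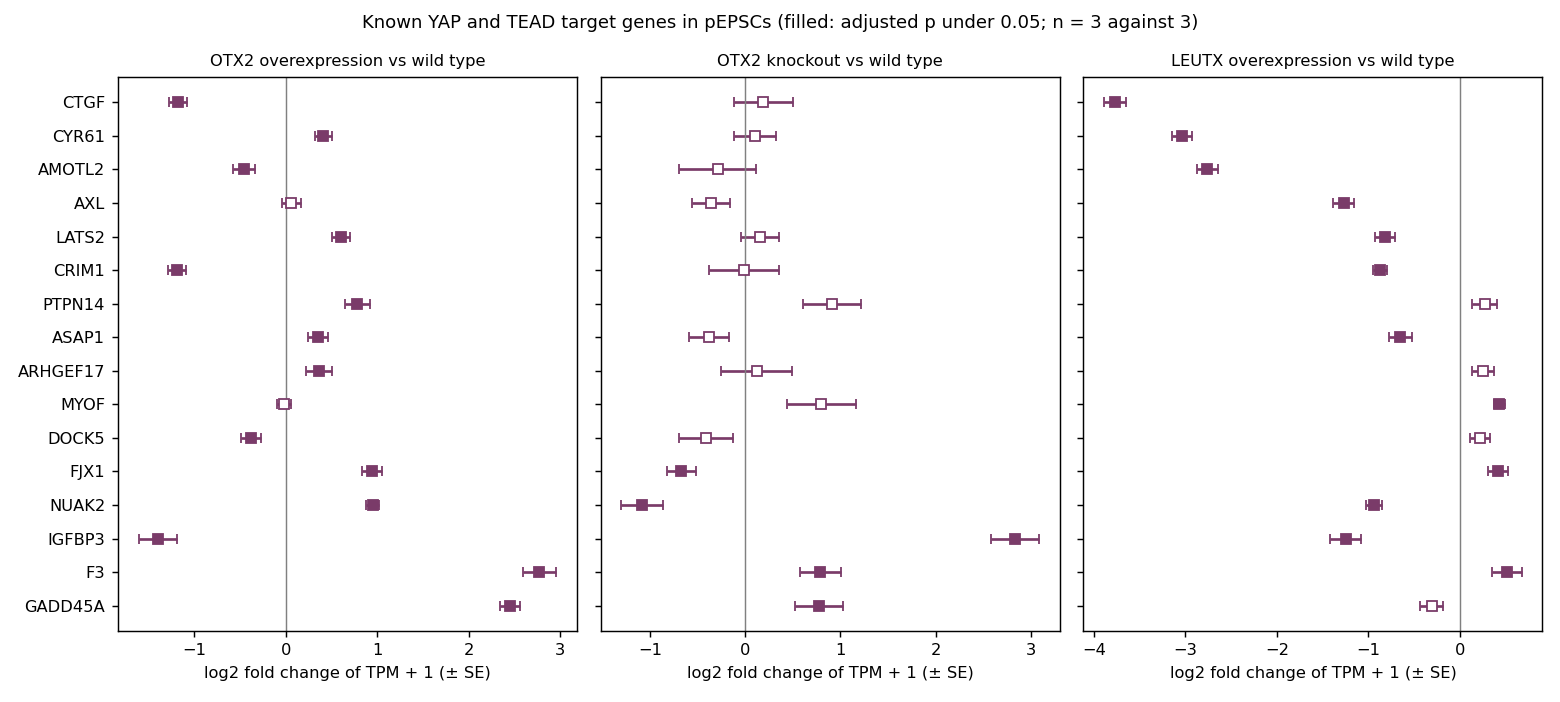
Log2 fold change of TPM + 1 with its SE (x axis, own range in each panel) of the 16 listed YAP and TEAD target genes in each engineered pEPSC group against wild type; filled squares passed at an adjusted p of 0.05. With LEUTX overexpression CTGF, CYR61 and AMOTL2 stand between -3.77 and -2.76, and with OTX2 overexpression CTGF is lower while CYR61 is higher.

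In 4-cell embryos, where a modified Smart-seq2 protocol was used and levels are therefore not tested against pEPSCs, YAP1 was the most abundant of the 4 listed genes. It was at 265, 270 and 182 TPM in wild type, TEAD1 was at 15.2, 9.34 and 10.6 TPM, AMOT at 3.62, 3.55 and 3.51 TPM, and VGLL4 at 0.967, 0.682 and 0.774 TPM. TEAD1 was the one TEAD listed, and AMOT varied least among wild-type libraries.

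Under OTX2 overexpression in embryos, VGLL4 passed and was higher, at 1.34, 3.29 and 1.72 TPM (change on the log2 scale 0.74, SE 0.232, limma adjusted p = 0.0447). This is 1 of 4 listed genes, where 29.4% of all 8550 genes tested passed, 21.5% higher and 7.93% lower; the 4 had a median of 0.19, against 0.28 for all genes. VGLL4 entered the test only through the overexpression libraries, since no wild-type embryo library reached 1 TPM. Its adjusted p was 0.0567 with quantile normalization and 0.126 with median-ratio scaling, and 0.0597 to 0.135 without any 1 wild-type library. Without any 1 overexpression library it was not tested.

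The other 3 genes did not pass in embryos. YAP1 was at 277, 193 and 202 TPM with OTX2 overexpression, overlapping wild type (-0.09, SE 0.201, adjusted p = 0.751). TEAD1 was at 11.2, 14.1 and 14.0 TPM (0.17, SE 0.196, adjusted p = 0.524), also overlapping. AMOT was at 4.25, 3.96 and 4.70 TPM, above all wild-type libraries, but did not pass (0.22, SE 0.148, adjusted p = 0.278). The share of passing genes that were higher fell from 73.0% as deposited to 44.7% with quantile normalization and 25.6% with median-ratio scaling, which moved the median of all genes to 0.02. With median-ratio scaling TEAD1 (-0.12) and AMOT (-0.03) turned below 0.

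CTGF was lower in embryos with OTX2 overexpression, at 4.18, 2.39 and 0.437 TPM against 20.8, 30.6 and 16.2 TPM in wild type (-2.96, SE 0.436, limma adjusted p = 0.00336). It was 1 of 4 targets that passed of 11 tested, where 29.4% of all genes passed, 2 higher and 2 lower, GADD45A (-0.89) being the other lower one and LATS2 (0.84, adjusted p = 0.0189) and ASAP1 (0.46) the higher ones. LATS2 had adjusted p of 0.0615 to 0.0838 without wild-type library 2 or without overexpression library 2 or 3, and 0.0702 with median-ratio scaling. GADD45A had adjusted p of 0.0516 to 0.0691 without wild-type library 2 or 3 or overexpression library 2. ASAP1 did not pass without those libraries or overexpression library 3 (0.0856 to 0.108), with quantile normalization (0.238), with median-ratio scaling (0.41), without mitochondrial genes (0.0744) or with the replicate block (0.0689). Of 21 upstream regulators tested 4 passed, 3 higher (LATS2, MAP4K4 and STK3) and 1 lower, MOB1A, which was at 6.32, 7.74 and 11.9 TPM in wild type and at 1.44, 0.336 and 0.415 TPM in the overexpression libraries (-2.49, adjusted p = 0.00152). MAP4K4 and STK3 did not pass with quantile normalization (adjusted p = 0.168 and 0.141), with median-ratio scaling (0.334 and 0.296), without mitochondrial genes (0.092 and 0.0863) or with the replicate block (0.0705 and 0.0895). Leaving out 1 library ended the MAP4K4 call for every library but overexpression library 1 (0.0513 to 0.15) and the STK3 call for every library but number 1 of each group (0.0667 to 0.161). For both CTGF and MOB1A some overexpression libraries were below 1 TPM, and TPM keeps no read depth to set an error there. The response of embryos was set against that of pEPSCs by an interaction term, in which TEAD1 and YAP1, 2 of the 4 genes, passed, where 65.8% of all genes tested did.

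**Figure D5:**
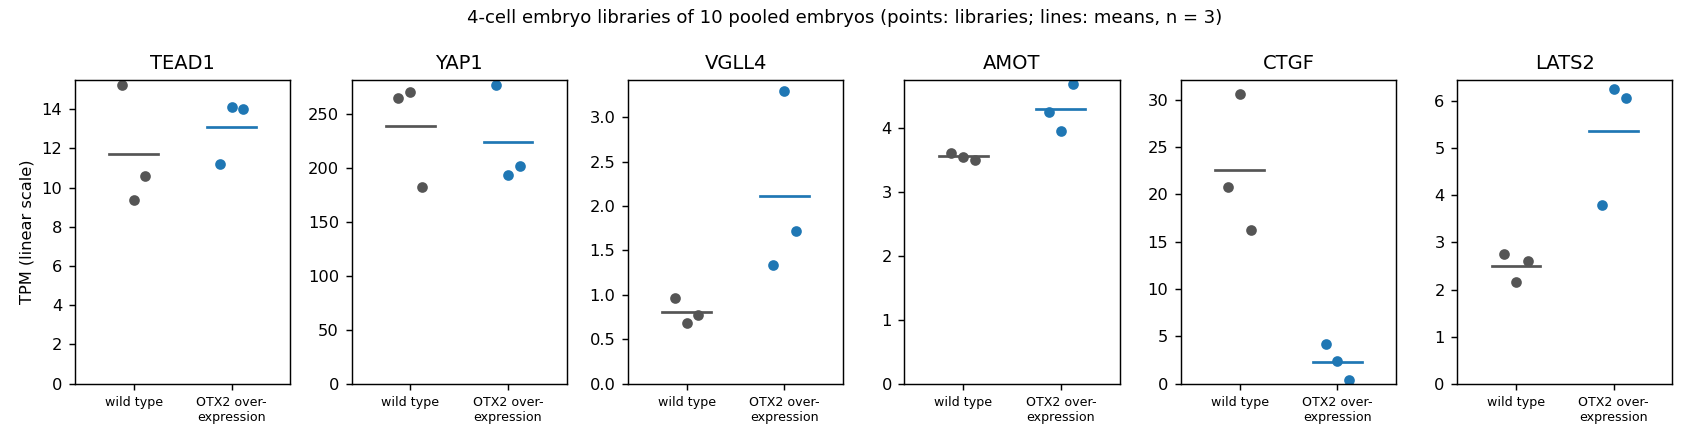
Level in TPM (linear y axis) of the 4 listed genes and of CTGF and LATS2 in 4-cell embryo libraries; points are libraries of 10 pooled embryos and lines are group means (n = 3). YAP1 and TEAD1 overlap between groups, while CTGF is at 0.437 to 4.18 TPM with OTX2 overexpression and 16.2 to 30.6 TPM in wild type.

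Genes with the most similar pattern over the 12 pEPSC libraries were ranked by Pearson's r of log2(TPM + 1) for the members whose group means spanned at least 1 log2 unit, among 6051 genes with the same span. Libraries of a group are near each other, so r mostly reflects 4 group means, and it is given as a description. For YAP1 the highest were MYO5C (r = 0.992), GALNT7 and JADE1 (both 0.989), and for TEAD4 HMGA1 (0.988), WDR5 (0.987) and KCNS3 (0.985). For WWTR1 they were CXXC4 (0.99), SEPT11 (0.986) and LOC100625479 (0.985), and for AMOTL2 ITPR3 (0.99) and AKAP2 (0.984). For VGLL1, over the 6 libraries of the knockout table and 1294 genes, they were CTSL, DLK1 and MEIS2 (all 0.999).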

How the data were processed

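Of the 35 samples, the 18 RNA-seq libraries are analysed and the other 17, which hold chromatin or single-cell data, are not. Titles gave each library's group. Each of 4 deposited tables gives TPM per gene as the authors computed it, per the file headers, for 6 libraries, with 13293, 12299, 12587 and 8643 genes for OTX2 overexpression, OTX2 knockout, LEUTX overexpression and embryos. TPM columns summed to 997003 to 998039. STAR 2.7.3, featureCounts 2.0.0, Trim Galore 0.6.6, StringTie 2.1.4 and the build Sscrofa11.1 are named in the submitters' processing notes, with no roles. Bulk pEPSC RNA was extracted with TRIzol, per the labels' protocols. Read depth is unknown for TPM, so no counting interval or floor is given.

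Values were tested as log2(TPM + 1) by limma 3.58.1 in R 4.3.3, with empirical Bayes moderation both robust (statmod 1.5.0) and trended, on genes that reached 1 TPM in 3 or more libraries, treated against reference, with Benjamini-Hochberg adjustment over all genes tested. Direct comparisons used genes in both tables. Python 3.11.15 with numpy 2.4.6, pandas 2.3.3 and matplotlib 3.10.9 did the rest. Gene positions are from RefSeq by symbol (10 of 10 matched). Alternatives were a pseudocount of 0.1, no filter, quantile normalization, median-ratio scaling, plain limma, each library left out, the replicate number as a block, one fit over the 12 pEPSC libraries and, chosen after seeing the data, removal of mitochondrial genes and a test of the difference between embryo and pEPSC responses. The knockout columns all carry the name OTX2-KO1 and are numbered 1, 3 and 4, while the titles are numbered otherwise. These columns were therefore tied to the group and to no single sample.

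The 10 genes, the lists of 35 upstream and 24 target symbols (some older names of the same gene) and the tests were chosen with earlier results of these data known. The text names, from each list and comparison, up to 5 genes with the smallest adjusted p among those that passed with groups that did not overlap, and LATS2, CTGF, CYR61 and ANKRD1 wherever listed. One gene ranked by likeness of pattern is not reported here.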

Additional observations from a re-analysis of the deposited data

Results flagged for a closer look

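The response to OTX2 overexpression differed between embryos and pEPSCs for 3 genes, by a limma interaction term over the 12 libraries of the 4 groups on genes in both tables. The log2 fold change of TEAD1 was higher in embryos by 1.14 (SE 0.215, adjusted p = 0.000495): it was -0.97 in pEPSCs and 0.17 in embryos. That of YAP1 was higher in embryos by 1.02 (SE 0.229, adjusted p = 0.00177): it was -1.11 in pEPSCs and -0.09 in embryos. CTGF fell in both, and its fold change was lower in embryos by -1.78 (SE 0.503, adjusted p = 0.00757): it was -1.18 in pEPSCs and -2.96 in embryos. In this test 65.8% of 7478 genes passed and the median of all genes was 0.36, or 0.05 with median-ratio scaling, under which TEAD1 stood at 0.77 (adjusted p = 0.00651), YAP1 at 0.64 (adjusted p = 0.0415) and CTGF at -2.31 (adjusted p = 0.00412). All 3 passed under each of 16 alternatives, with adjusted p of 2.2e-05 to 0.00651 for TEAD1, 0.0014 to 0.0415 for YAP1 and 0.000634 to 0.0216 for CTGF. The 16 were a pseudocount of 0.1, median-ratio scaling, no filter, removal of mitochondrial genes and each of the 12 libraries left out. Quantile normalization, plain limma and the replicate block were not run for this term. VGLL4 (0.10, adjusted p = 0.775), AMOT (0.07, adjusted p = 0.673) and LATS2 (0.24, adjusted p = 0.345) did not pass. The embryo and pEPSC libraries were made by different protocols, and the part of the protocol in these differences cannot be told apart from that of the cells.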

How the results depend on the processing

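The counts of passing genes among the members stayed within 1.5 times of the values reported for OTX2 overexpression, LEUTX overexpression and their direct comparison under every alternative run. In the knockout, members passing went from 2 to 5 with quantile normalization and 4 with median-ratio scaling or without mitochondrial genes, upstream regulators from 7 to 14, 12, 11 and, in the fit over 12 libraries, 14, and targets from 5 to 8 with quantile normalization. With LEUTX overexpression, upstream regulators went from 18 to 9 in the fit over 12 libraries. In embryos, all passing genes went from 2513 to 1366 with quantile normalization, 1136 with median-ratio scaling, 1652 without mitochondrial genes and 1619 with the replicate block, and members from 1 to 0 in each of these by limma (VGLL4 alone at an unadjusted p under 0.05 in each). Upstream regulators in embryos went to 2 with median-ratio scaling and with the block, and targets to 2 with median-ratio scaling. Leaving out 1 library gave 2055 to 7706 passing genes in the knockout (4552 with all), 1 to 7 members, 3 to 21 upstream regulators and 2 to 11 targets; 849 to 2844 genes in embryos, 0 members, 1 to 7 upstream regulators and 1 to 5 targets; 4745 to 8932 genes and 2 to 7 members between knockout and OTX2 overexpression; and 4365 to 9093 genes and 3 to 7 members between LEUTX overexpression and knockout. The cause was not tested.

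Values that did not pass turned sign as follows, with none of the calls against wild type in pEPSCs reversing. With OTX2 overexpression AMOT went to -0.08 (quantile) and -0.04 (median-ratio), TEAD2 to -0.00239, -0.17 and, without mitochondrial genes, -0.07, TEAD3 to -0.00566 (median-ratio) and WWTR1 to -0.27 and -0.07; TEAD2 ranged from -0.01 to 0.06 over left-out libraries. With LEUTX overexpression AMOT went to -0.23 and -0.09 and ranged from -0.04 to 0.08. In the knockout AMOTL2 ranged from -0.59 to 0.21 and YAP1 from -0.04 to 0.17; CTGF ranged from -0.00537 to 0.56 and CYR61 was -0.09 without library 4. In embryos AMOT went to -0.03 and TEAD1 to -0.12 (median-ratio), and YAP1 ranged from -0.27 to 0.00952, with 0.00728 without overexpression library 2. Between knockout and OTX2 overexpression VGLL4 went to 0.02 (quantile), AMOTL2 ranged from -0.13 to 0.67 (-0.04 without library 3) and TEAD1 from -0.06 to 0.71. TEAD2 went to 0.02 without mitochondrial genes between LEUTX and OTX2 overexpression, and TEAD3 to -0.16 (median-ratio), ranging from -0.37 to 0.30, between LEUTX overexpression and knockout. For the difference between embryos and pEPSCs AMOT went to -0.23 and VGLL4 to -0.02 (median-ratio), VGLL4 ranging from -0.16 to 0.28.

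The replicate numbers gave little sign of pairing the samples. Correlations of same-numbered libraries' deviations ran from -0.156 to -0.074 for OTX2 overexpression, from -0.182 to 0.044 for LEUTX overexpression and from -0.209 to 0.065 in embryos. Between LEUTX and OTX2 overexpression they were all above 0, from 0.033 to 0.109. With the replicate number as a block 10634 genes passed with OTX2 overexpression, 8163 with LEUTX overexpression and 1619 in embryos. Between LEUTX and OTX2 overexpression 10202 passed with the block and 10015 without it. Among the members the calls lost were TEAD1 with LEUTX overexpression and VGLL4 in embryos. No paired analysis was possible for comparisons with the knockout because its column numbers differ from the titles.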
